A study of Mus musculus with 8 samples.

Results

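Shh, Gdf11 and Vegfa encode secreted signals that retinal ganglion cells are known to release, and Kdr and Acvr2b encode receptors for VEGF-A and GDF11. These 5 genes were taken by symbol from the deposited count table of 57180 genes, and all 5 had enough counts to be tested. RNA came from isolated retinas of mouse embryos on a CD1 background, sequenced as tags from the 3′ ends of transcripts (3′-Tag-Seq), so that long and short genes can be compared by count. The 4 control retinas carried the conditional Smo allele on both chromosomes (SmoCKO/CKO) without Cre. The 4 Rax-SmoCKO retinas carried the same alleles with Rax-Cre, a BAC transgene driven by Rax regulatory sequence. Rax-Cre is active from the optic vesicle onwards, in the retina, the pigment epithelium and the optic stalk, whereas the lens has no Cre. No library carried Rax-Cre with an intact Smo gene, so the transgene and the loss of Smo cannot be told apart. The study places the retinas at E13.5, but the labels run from day 13 to day 20, rising by 1 from sample to sample through the controls and then the Rax-SmoCKO samples. If those labels were true ages, age and genotype could not be told apart. The methods name 5 Rax-SmoCKO samples, of which 4 were analysed here.

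Ganglion cells are the first neurons to leave the cell cycle in the retina, and signals from them act back on the progenitors that are still dividing. Shh, released by ganglion cells, is received through Ptch1 and Smo and keeps progenitors proliferating. GDF11 binds activin type II receptors such as ACVR2B, signals through SMAD2 and SMAD3 and limits the period in which progenitors make ganglion cells, whereas VEGF-A acts on progenitors through KDR, the receptor that endothelial cells also carry. The comparison therefore asks whether the retina's supply of these signals, and of the receptors for the latter pair, differed where Smo was deleted.

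All 5 genes are protein-coding in GENCODE M21 on the mouse build GRCm38. Shh (ENSMUSG00000002633) lies on chromosome 5 from 28456815 to 28467256, on the minus strand. Kdr (ENSMUSG00000062960) lies on the same chromosome and strand, from 75932827 to 75978458. Gdf11 (ENSMUSG00000025352) is on the minus strand of chromosome 10 from 128882295 to 128891718. Vegfa (ENSMUSG00000023951) is on the minus strand of chromosome 17 from 46016993 to 46032369, and Acvr2b (ENSMUSG00000061393) on the plus strand of chromosome 9 from 119402118 to 119434995. Shh overlaps 9530036O11Rik on the opposite strand, which had 0 to 2 counts per library, and Gm26894, which has no row of its own in the table. Acvr2b overlaps Gm47320 on the opposite strand, with 0 counts in every library, and no annotated gene overlaps Gdf11, Vegfa or Kdr. Within the last 500 bases of their transcripts, no member shared an exact run of more than 11 bases with the relative compared, and the 11 bases were shared by Acvr2b and Acvr2a.

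RefSeq promoter windows, 250 bases before to 50 after the annotated start on GRCm38.p6, were found for 4 of the 5 genes, all but Shh. The windows of both ligands among them are printed below to show the DNA from which each signal starts. Gdf11 (chr10:128891669-128891968, minus strand) and Vegfa (chr17:46032328-46032627, minus strand) are given 5′ to 3′ in the direction of transcription. Capitals mark matches, on either strand, to the core promoter motif TATAAA or to the GC box motif GGGCGG.
Gdf11: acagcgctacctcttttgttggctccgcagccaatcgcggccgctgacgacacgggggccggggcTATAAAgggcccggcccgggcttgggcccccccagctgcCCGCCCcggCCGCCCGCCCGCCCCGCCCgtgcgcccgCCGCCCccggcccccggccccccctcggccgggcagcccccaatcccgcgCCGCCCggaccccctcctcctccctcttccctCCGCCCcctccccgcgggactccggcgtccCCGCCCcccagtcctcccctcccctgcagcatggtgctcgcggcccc
Vegfa: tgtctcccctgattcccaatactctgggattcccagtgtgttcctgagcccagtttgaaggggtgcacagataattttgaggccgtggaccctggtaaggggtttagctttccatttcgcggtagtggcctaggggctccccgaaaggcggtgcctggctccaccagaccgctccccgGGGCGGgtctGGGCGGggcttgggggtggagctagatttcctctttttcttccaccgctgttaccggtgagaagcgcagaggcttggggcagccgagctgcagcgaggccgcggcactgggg
The Gdf11 window held 9 matches to GGGCGG, all on the reverse strand and some overlapping, and 1 to TATAAA, which begins 185 bases before the start. The Vegfa window held 2 matches to GGGCGG, and the windows of Kdr and Acvr2b, which are not printed, held 2 and 3. Of 32851 mouse promoter windows, 35.7% held GGGCGG and 13.6% held TATAAA on either strand. The letters ACGTG, 1 form of the core of the element bound by hypoxia-inducible factors, were in none of the 4 windows and in 19.6% of all windows. The other form, GCGTG, read on either strand, is present in the Kdr and Acvr2b windows and was not counted over all windows. These matches describe letters only and were not tested for use in the retina.

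Before the members are compared, some differences between the libraries need to be given. Totals ran from 3017480 to 4615667 counts per library, and levels are given as CPM, counts scaled to a common library size. Smo, the targeted gene, had 16.3 to 23.8 CPM in the control retinas and 2.84 to 4.95 CPM in the Rax-SmoCKO retinas. The position of the deleted part relative to the 3′ tags was not known here, so this count does not check the deletion itself. Control 2 held 18596 CPM of lens genes, Rax-SmoCKO 2 held 447 and the others 9.94 to 78.2. Y-linked genes had 1131 counts in Rax-SmoCKO 2, 893 in Rax-SmoCKO 3 and at most 1 in each of the others. Whether each library stands for 1 embryo or a pool was not stated, and the p-values measure only the spread between these samples.

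The 5 genes were present at very different levels. Over the 8 libraries the mean level was 237 CPM for Acvr2b, 179 CPM for Kdr, 67.7 CPM for Gdf11, 40.4 CPM for Vegfa and 3.54 CPM for Shh. No neighbours in this order overlapped: the lowest library of each gene lay above the highest library of the next. Shh, the rarest, also varied most, with its highest library 2.94 times its lowest. The same ratio was 1.44 for Vegfa, 1.26 for Kdr, 1.23 for Acvr2b and 1.22 for Gdf11. Both receptors were thus more abundant per transcript end than the 3 signals.

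**Figure D1:**
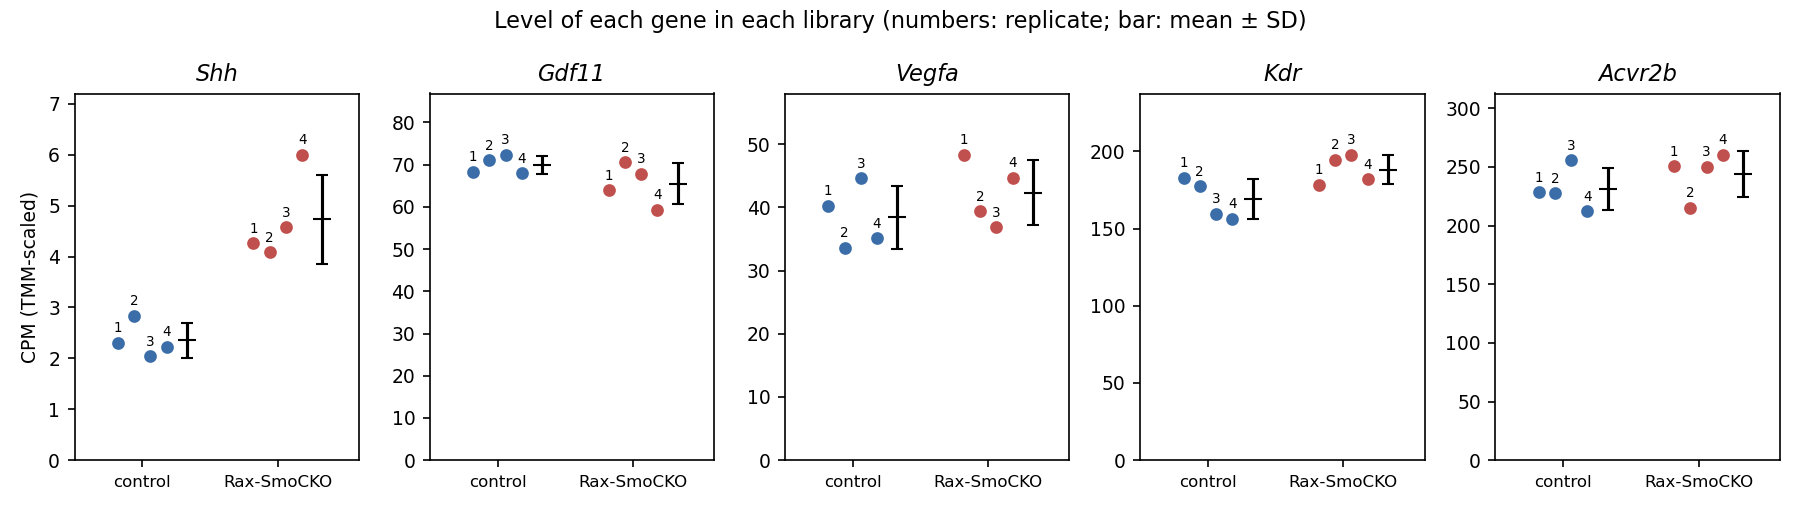
CPM of Shh, Gdf11, Vegfa, Kdr and Acvr2b in each library (points, numbered by replicate) with the mean and SD of each group (bars, n = 4). The Shh points of the groups do not overlap (2.04 to 2.84 CPM in control, 4.09 to 6.0 in Rax-SmoCKO), whereas those of the other 4 genes do.

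None of the 5 genes passed the test over all genes. Shh, the secreted ligand of the Hedgehog pathway, had the smallest p of the 5, with a mean of 2.36 ± 0.34 CPM in the controls and 4.73 ± 0.87 CPM in Rax-SmoCKO retinas (SD, 4 libraries each). Its CPM was 2.31, 2.84, 2.04 and 2.23 in the control libraries and 4.26, 4.09, 4.58 and 6.0 in the Rax-SmoCKO libraries. Each Rax-SmoCKO library lay above each control library, and Rax-SmoCKO 4 was the highest. These values rest on few reads, 7 to 12 counts per control library and 17 to 19 per Rax-SmoCKO library. The log2 fold change was 0.97 (standard error 0.27, 95% interval 0.38 to 1.57), or 1.96-fold. Its p was 0.00363 before adjustment and 0.277 after Benjamini-Hochberg adjustment in edgeR's quasi-likelihood test. The exact permutation test of the CPM gave a two-sided p of 0.0286, which is the smallest that 4 against 4 libraries allow. Across all 14730 genes, 14 (0.095%) had an adjusted p under 0.05, with 0.0339% higher and 0.0611% lower in Rax-SmoCKO. An unadjusted p under 0.05 was found for 9.5% of them, and groups that did not overlap for 5.7%, with 2.7% higher in Rax-SmoCKO. Among the members these counts were 0, 2 (Shh and Kdr) and 1 (Shh) of 5.

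Gdf11 and Vegfa, the other ganglion cell signals, had overlapping groups and fold changes close to 0. Gdf11, a TGF-β family ligand, had 68.4, 71.0, 72.4 and 68.0 CPM in control and 64.0, 70.5, 67.8 and 59.4 CPM in Rax-SmoCKO. The groups overlapped, with the lowest value in Rax-SmoCKO 4. Its log2 fold change was -0.09 (standard error 0.07, 95% interval -0.24 to 0.06, adjusted p = 0.706 from edgeR), so the interval runs from 0.845-fold to 1.04-fold. Vegfa, the main VEGF ligand, had 40.3, 33.6, 44.6 and 35.1 CPM in control and 48.3, 39.4, 36.9 and 44.7 CPM in Rax-SmoCKO. These groups overlapped through most of their range. The log2 fold change of Vegfa was 0.14 (standard error 0.11, 95% interval -0.11 to 0.39, adjusted p = 0.742 from edgeR), which reaches from 0.928-fold to 1.31-fold.

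The receptors were the most abundant members, and both had overlapping groups. Kdr, the main signalling receptor for VEGF-A, had 183, 177, 160 and 156 CPM in control and 178, 195, 198 and 182 CPM in Rax-SmoCKO. The groups overlapped only through control 1, which lay above Rax-SmoCKO 1 and 4. For Kdr the log2 fold change was 0.16 (standard error 0.07, 95% interval 0.00 to 0.31). In edgeR's quasi-likelihood test its p was 0.0472 before adjustment and 0.515 after. Acvr2b, a type II receptor that binds GDF11, myostatin and activins, had 228, 227, 256 and 212 CPM in control and 250.4, 215, 250.1 and 260 CPM in Rax-SmoCKO. The groups overlapped, and Rax-SmoCKO 2 lay below 3 of the 4 controls. Its log2 fold change was 0.08 (standard error 0.08, 95% interval -0.09 to 0.25, adjusted p = 0.799 from edgeR). By the exact permutation test of the CPM, two-sided p was 0.114 for Gdf11, 0.286 for Vegfa, 0.114 for Kdr and 0.4 for Acvr2b.

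In RNA from whole retinas, more cells of a type and more RNA per cell cannot be told apart. Markers of ganglion cells were mostly above 0 in fold change, although none passed the adjusted test. A list of 20 such markers, among them Pou4f2, a transcription factor of ganglion cell differentiation, summed to 5852 to 7039 CPM in control and 6669 to 9628 CPM in Rax-SmoCKO, the highest in Rax-SmoCKO 4. Of the 19 markers tested, 18 were above 0 with a median log2 fold change of 0.34, beside a median of 7.6e-05 over all tested genes. In edgeR 14 had an unadjusted p under 0.05 and 0 an adjusted one, all 14 being higher in Rax-SmoCKO, beside 4.89% of all tested genes. For 5 the groups did not overlap, with Rax-SmoCKO higher, beside 2.7% of all tested genes. The fold changes of the markers ran from -0.09 for Rbpms to 0.88 for Pou4f3. The estimated fold change of Shh (0.97) lay above that of each of the 19 tested markers. That of Gdf11 (-0.093) lay just below the lowest of them (-0.085). The order of Shh and Pou4f3 was not resolved, with standard errors of 0.27 and 0.29 from edgeR. Pou4f3 also had few reads, 10 to 33 counts per library. The edgeR interval of Shh (0.38 to 1.57) covers Pou4f3, Syt4 (0.56), Pou4f2 (0.49), Gap43 (0.41) and Pou4f1 (0.39). The median of the markers (0.34) lies below that interval. The part of ganglion cell number in the Shh value was not tested.

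To set the 3 signals against the ganglion cell transcripts in the same library, each was divided by the summed CPM of the 20 markers and expressed on the log2 scale. For Shh this log2 ratio was -11.21, -10.96, -11.44 and -11.54 in control and -10.70, -10.64, -10.57 and -10.61 in Rax-SmoCKO. The groups did not overlap, and the Rax-SmoCKO libraries lay close together. Each of the Rax-SmoCKO ratios rests on only 17 to 19 Shh counts, so their closeness is not a measure of precision. The control mean was -11.29 ± 0.26 (SD, n = 4) and that of Rax-SmoCKO -10.63 ± 0.06 (SD, n = 4). These means differ by 0.66, or 1.58-fold. The exact permutation test gave a two-sided p of 0.0286, or 0.114 after adjustment over the 4 ratios computed.

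The Gdf11 ratio lay on the other side. It was -6.42, -6.37, -6.38 and -6.69 in control and -6.83, -6.56, -6.71 and -7.34 in Rax-SmoCKO. The groups overlapped only through control 4, which lay below Rax-SmoCKO 2. The difference of the means was -0.40 (0.76-fold, exact permutation p = 0.0571, adjusted p = 0.114). It was -0.24 without Rax-SmoCKO 4, the library with the largest marker sum. For Vegfa the difference was -0.16 (0.896-fold, exact permutation p = 0.371, adjusted p = 0.495), and the ratios overlapped. With Pou4f2 alone in place of the marker sum, the differences were 0.47 for Shh, -0.58 for Gdf11 and -0.34 for Vegfa. None of these passed an adjusted p of 0.05 (exact permutation, adjusted p = 0.0571 to 0.0857), where the smallest p before adjustment is 0.0286.

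**Figure D2:**
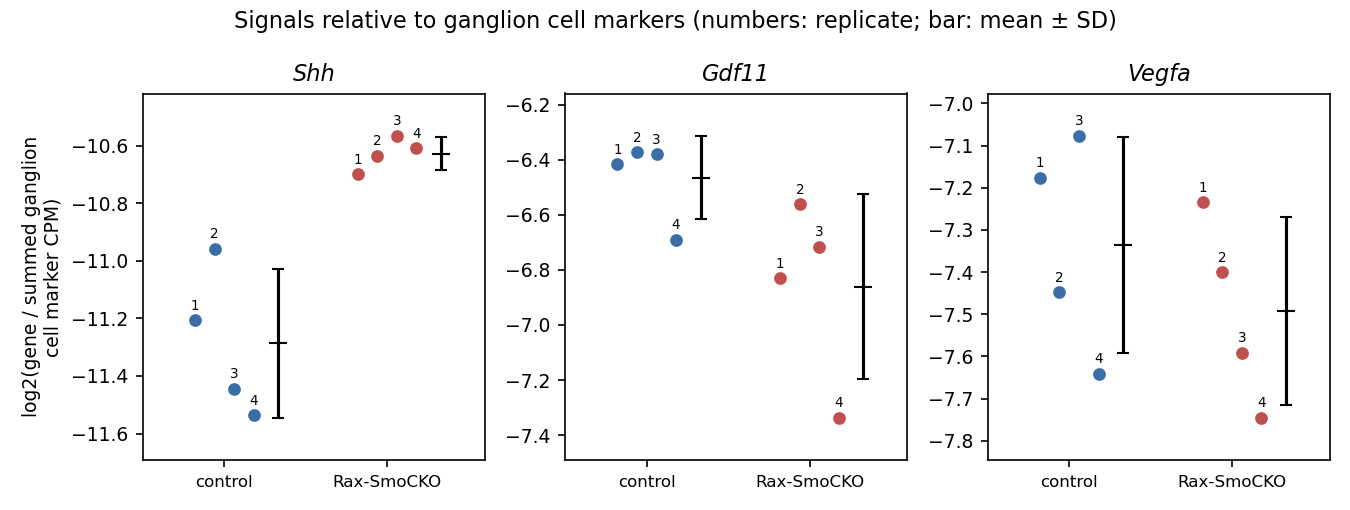
Log2 ratio of Shh, Gdf11 and Vegfa CPM to the summed CPM of 20 ganglion cell markers, per library (points, numbered by replicate), with mean and SD (bars, n = 4 per group). The Shh ratio was higher in all 4 Rax-SmoCKO libraries, the Gdf11 ratio was lower with 1 overlapping control, and the Vegfa ratio overlapped throughout; each panel has its own vertical scale, which does not start at 0.

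Kdr is carried by endothelial cells as well as by progenitors, so its level was set beside 16 endothelial markers other than Kdr. The summed endothelial CPM ran from 38.0 in Rax-SmoCKO 4 to 196 in Rax-SmoCKO 2, a 5.15-fold range, while Kdr ran from 156 to 198, a 1.26-fold range. Flt1, another endothelial VEGF receptor, ranged 7.71-fold, the adhesion gene Pecam1 3.61-fold and the junction gene Cdh5 11.4-fold. Egfl7, the endothelial marker with the highest control mean (15.6 CPM), ranged 1.78-fold, nearer to Kdr. The ratio of Kdr to the endothelial sum was 0.995 in Rax-SmoCKO 2 and 4.78 in Rax-SmoCKO 4, and it was 1.62 to 3.6 in the controls. Between the groups the log2 ratio differed by 0.0034 (exact permutation p = 1), and its sign turned when single libraries were left out. Set against the summed progenitor markers, which were 9792 to 10243 CPM in control and 8566 to 9311 CPM in Rax-SmoCKO, Kdr was higher by 0.32 on the log2 scale. That difference had an exact permutation p of 0.0286 and an adjusted p of 0.0571 over the 4 ratios. It rests in part on Ccnd1, the cell cycle gene that was the only progenitor marker to pass in edgeR (adjusted p = 0.0115), at 2603 to 3505 CPM in control and 2137 to 2360 CPM in Rax-SmoCKO. Without Ccnd1, a choice made after seeing the data, the other 12 markers summed to 6604 to 7189 and 6429 to 7113 CPM, which overlap. The Kdr difference was then 0.19, with overlapping groups (exact permutation p = 0.114, adjusted p = 0.152).

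**Figure D3:**
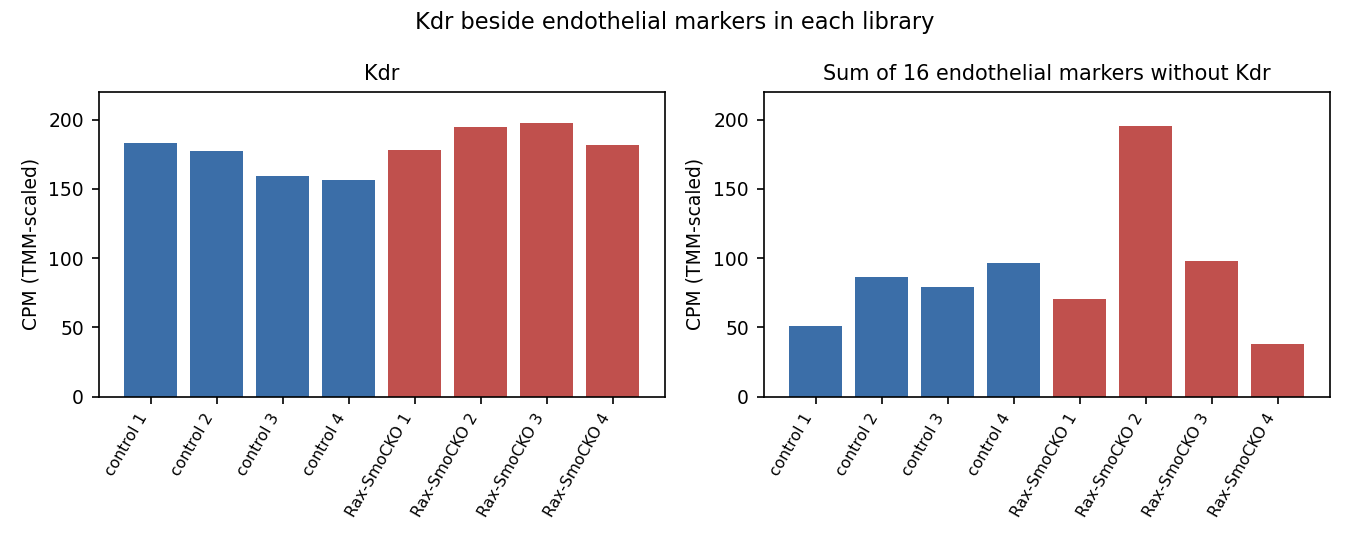
Kdr CPM (left) and the summed CPM of 16 endothelial markers other than Kdr (right) in each of the 8 libraries (bars, coloured by group). Kdr stayed between 156 and 198 CPM while the endothelial sum ran from 38.0 to 196 CPM.

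The remaining genes of the 3 pathways were read from lists of 38 genes, of which 30 were tested. None passed an adjusted p of 0.05 in edgeR, in DESeq2 or in limma-voom, while by edgeR's unadjusted p 4 were higher and 2 lower, beside 4.89% and 4.61% of all tested genes. The Hedgehog ligand and release list had 6 of 8 genes tested, with 5 above 0 and a median of 0.15. Among them Hhat, which adds palmitate to Shh, had a log2 fold change of 0.12, Disp1, which releases lipid-bearing Shh from the cell, 0.23 and Scube3, a secreted carrier family member, 0.07. Disp2 had the smallest p of this list, with a log2 fold change of 0.18 (adjusted p = 0.791 from edgeR). Ihh and Dhh, the other Hedgehog ligands, had at most 2 counts in any library and were not tested.

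Of the GDF11 ligand and processing list, 6 of 8 were tested, with 4 above 0 and a median of 0.21. Mstn, which encodes myostatin, the closest relative of GDF11 and a ligand of the same receptors, had the largest fold change on the list. Its CPM was 11.2, 8.05, 4.59 and 10.3 in control and 10.4, 15.9, 14.5 and 29.3 in Rax-SmoCKO. The groups overlapped only through Rax-SmoCKO 1, and Rax-SmoCKO 4 stood above the rest. The log2 fold change was 1.03 (standard error 0.32, 95% interval 0.33 to 1.73, adjusted p = 0.341 from edgeR) and 0.69 without Rax-SmoCKO 4. Mstn was thus measured at a level between those of Shh and Vegfa, while Furin, a protease that cuts the GDF11 precursor, had a value of -0.01.

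Among the 7 receptors and SMADs besides Acvr2b, 6 were above 0 with a median of 0.03. Smad2, a receptor-activated transcription factor of this pathway, had 121 to 136 CPM in control and 143 to 176 CPM in Rax-SmoCKO, so that the groups did not overlap. Its log2 fold change in edgeR was 0.30 ± 0.08 (SE), and the adjusted p was 0.242. The type II receptor Acvr2a, the type I receptors Tgfbr1 and Acvr1b, and Smad3 and Smad4 all lay between 0.01 and 0.04. The type I receptor Acvr1c, the only gene of this list below 0, had a log2 fold change of -0.23 (adjusted p = 0.835 from edgeR). Of the 7 inhibitors, 5 were tested, with a median of -0.02. Fst, which encodes the ligand trap follistatin, had 24.1, 23.4, 33.4 and 29.8 CPM in control and 25.8, 20.6, 19.9 and 19.3 CPM in Rax-SmoCKO. Control 1 and 2 lay below Rax-SmoCKO 1, and the log2 fold change in edgeR was -0.37 ± 0.14 (SE), where the adjusted p was 0.458.

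On the VEGF side, 3 of the 4 other ligands were tested, and Vegfb, Vegfc and Pgf gave log2 fold changes of -0.18, 0.16 and 0.38, none of which passed. Of the 4 receptors and co-receptors besides Kdr, 3 were tested and all 3 were above 0, with a median of 0.44. The neuropilin Nrp1, a co-receptor for VEGF-A and for semaphorins, had 32.7 to 49.3 CPM in control and 50.1 to 66.2 CPM in Rax-SmoCKO. The groups were apart by less than 1 CPM. On the log2 scale the difference was 0.41 (standard error 0.13, adjusted p = 0.356, edgeR). Its relative Nrp2 had 7.26, 6.86, 8.41 and 16.2 CPM in control and 12.3, 41.5, 18.8 and 9.0 CPM in Rax-SmoCKO. The high value belonged to Rax-SmoCKO 2, the library richest in endothelial transcripts, and the log2 fold change of 1.11 (adjusted p = 0.453 from edgeR) was 0.49 without it. The value of Nrp2 was 0.16 without both libraries with Y-linked counts. For Flt1 it was 0.44 with all libraries and -0.24 without Rax-SmoCKO 2. Without any filter on low counts, edgeR's adjusted p was 0.00187 for Nrp2, 0.00326 for Mstn, 0.0156 for Nrp1 and 0.0425 for Smad2, while Shh had 0.305. For these pathway genes that setting was added after seeing the data. Over all genes it gave 289 calls, against 14 with the filter.

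Vegfa is induced by low oxygen in many tissues, and 13 genes that share this response were tested beside it. Of these, 12 were above 0 with a median of 0.13, where 50% of all tested genes were above 0. In edgeR 4 were higher with an unadjusted p under 0.05, beside 4.89% of all tested genes. Pgk1, a glycolytic enzyme, had 15.3 to 23.4 CPM in control and 24.2 to 26.7 CPM in Rax-SmoCKO, and Hif1a, the oxygen-sensing transcription factor subunit, 404 to 437 and 454 to 482 CPM. For both genes the groups did not overlap, as for 2.7% of all tested genes with Rax-SmoCKO higher. Neither passed the adjusted test in edgeR (adjusted p = 0.388 for Pgk1 and 0.446 for Hif1a).

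**Figure D4:**
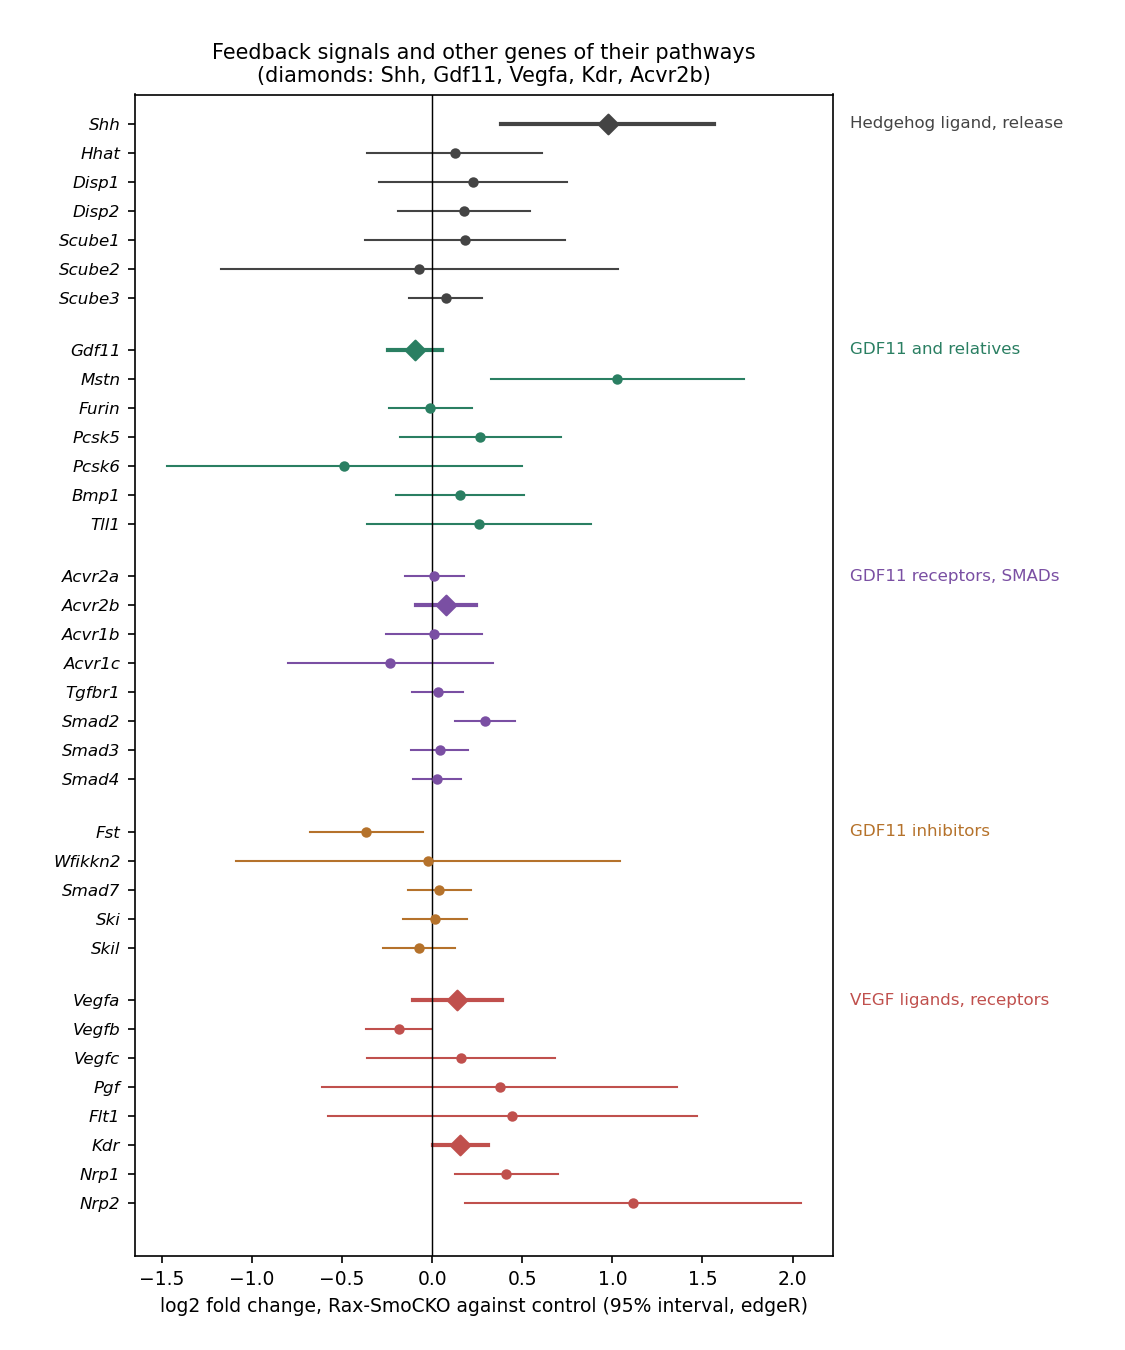
Log2 fold change of Rax-SmoCKO against control, with 95% intervals from edgeR (n = 4 per group), for the 5 genes (diamonds) and the tested genes of their pathways (circles), grouped by role. Shh at 0.97, Mstn at 1.03 and Nrp2 at 1.11 lie farthest to the right, and with the filter on low counts no gene shown passed an adjusted p of 0.05.

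Each gene's pattern over the 8 libraries was also matched to that of 11665 other genes with a mean of at least 10 counts. These likenesses are a description, since the libraries share the difference between the groups and the highest of many values are shown. The closest to Shh were Ift70b, an intraflagellar transport gene, Magee1 and Mettl21a (Pearson r 0.964, 0.963 and 0.955, Spearman rho 0.881, 0.81 and 0.952). Ift70b passed the test over all genes, with a log2 fold change of 1.40 (adjusted p = 0.00145 from edgeR). Closest to Gdf11 were Mybbp1a, Gemin6 and Fhod1 (r 0.974, 0.964 and 0.964, rho 0.976, 0.952 and 0.905), and to Vegfa Baz2b, Arid4b and Clk4 (r 0.982, 0.959 and 0.954, rho 1, 0.905 and 0.952). For Kdr they were Hsd17b11, Crls1 and Tmem14a (r 0.98, 0.975 and 0.968, rho 0.905, 0.81 and 0.976), and for Acvr2b Myo16, Tnip1 and Mettl13 (r 0.979, 0.947 and 0.935, rho 1, 0.929 and 0.905). Apart from Ift70b, none of these genes passed the adjusted test.

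None of the markers of tissues around the retina passed the adjusted test in edgeR. All 10 lens markers tested were below 0, with a median log2 fold change of -4.81, but control 2 alone held 18596 CPM of lens genes. The other controls held 9.94 to 15.1 CPM, and the Rax-SmoCKO libraries 78.2, 447, 34.5 and 11.0 CPM. With control 2 included, 9 of the lens markers were lower in edgeR at an unadjusted p under 0.05, beside 4.61% of all tested genes. The markers of pigment epithelium, mesenchyme, blood and endothelium were mostly above 0. Pigment epithelium markers summed to 66.3 to 287 CPM in control and 107 to 654 CPM in Rax-SmoCKO, with all 7 tested markers above 0, and Rpe65 at 0 in every library. Of these 7, 4 were higher in edgeR at an unadjusted p under 0.05, beside 4.89% of all tested genes. That count was 0 for the mesenchyme, blood and endothelial markers. Mesenchyme markers summed to 55.5 to 176 and 55.4 to 369 CPM, with 9 of 10 tested above 0, and blood cell markers to 910 to 1706 and 915 to 3802 CPM, with 8 of 9 above 0. Endothelial markers summed to 50.9 to 96.5 and 38.0 to 196 CPM, with 14 of 16 above 0. Their part in the values of Vegfa, Kdr, Nrp1 and Nrp2 was not tested. Leaving out control 2 and Rax-SmoCKO 2, each the library of its group richest in lens transcripts, gave log2 fold changes of 1.15 for Shh, -0.13 for Gdf11, 0.11 for Vegfa, 0.16 for Kdr and 0.12 for Acvr2b. Leaving out both libraries with Y-linked counts gave 1.09, -0.18, 0.28, 0.10 and 0.15 in the same order. Shh remained the gene with the largest difference of the 5 in each of these fits, and none of the 5 passed an adjusted p of 0.05 in them.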

How the data were processed

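Isolated retinas were profiled by 3′-Tag-Seq. After trimming and alignment to mouse, the authors counted reads per Ensembl gene with featureCounts and deposited whole-number counts. STAR (2.7.0e) and limma, with builds GRCm38, mm10 and GRCh38, stand in the submitters' processing notes. No source used here tells if molecular identifiers were collapsed or if counting used strand. The authors' group means were not used. Groups came from sample titles and genotypes.

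Counts were scaled by TMM and tested with edgeR 4.0.16 (R 4.3.3), a quasi-likelihood fit on group, over genes reaching 5 counts in 4 or more libraries, with Benjamini-Hochberg adjustment at 0.05. Standard errors are the absolute log2 fold change over the square root of F. Rows without a symbol (525, 0.094% of counts) were kept. Libraries of a group differed by more than sampling noise (2.18 to 9.85 chi-square units per degree of freedom). Log2 ratios added 0.5 counts to the member. The fit was tested on simulated data. Alternatives used DESeq2 1.42.0 and limma 3.58.1, other scalings and filters, a replicate block, and libraries left out.

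The members and gene lists were chosen with earlier results of these data known. Genes named besides the members are those with the smallest p in each pathway list, those whose role is needed to read a member, and the 3 closest in pattern to each member. Some cell type markers are named as well. Marker lists held 7 cell or tissue types.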

Additional observations from a re-analysis of the deposited data

Results flagged for a closer look

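In the control group, the log2 ratio of Gdf11 to the ganglion cell markers was -6.69 in control 4 and -6.42 to -6.37 in the other 3 libraries, so 1 library lay far from the rest. The gap to the nearest library was 0.859 of the range of the group. Nrp2 CPM in control 4 was 16.2, against 6.86 to 8.41 in the other controls, a gap of 0.834 of the range. Among 32 groups looked at in this way, chance would flag about 1 in 20.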

How the results depend on the processing

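Over 142 alternatives, 136 kept their direction and their side of the threshold or, for the count of pathway genes that passed, kept that count. The log2 fold change of Shh was 0.85 to 1.09 with each library left out in turn (adjusted p = 0.261 to 0.505, edgeR), and that of Gdf11 was -0.13 to -0.05, of Vegfa 0.07 to 0.22, of Kdr 0.12 to 0.19 and of Acvr2b 0.04 to 0.14. DESeq2 gave no adjusted p for Shh (log2 fold change 0.99, unadjusted p = 0.0187). The difference in the Kdr to endothelial ratio ran from -0.36 to 0.39 with 1 library left out and turned negative in 5 of these 8 fits. The Shh ratio ran from 0.58 to 0.77, the Gdf11 ratio from -0.50 to -0.24 and the Vegfa ratio from -0.26 to -0.07. With 4 against 3 libraries the smallest exact permutation p is 0.0571, so no ratio fit with 1 library left out could cross the threshold.

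Without a filter on low counts, 4 of the pathway genes passed in edgeR, against 0 with it; this and the other settings of that count, apart from DESeq2, voom and the paired leave-outs, were added after seeing the data, and the cause was not tested. Over all genes the count of calls was 14, and it was 289 without a filter, 59 with DESeq2, 36 with the replicate number as a block and 12 to 19 in the other fits. The numbers did not pair the samples (correlations of deviations -0.06 to 0.24). With the block Shh had 0.98 (adjusted p = 0.301, edgeR), Gdf11 -0.09, Vegfa 0.14, Kdr 0.16 and Acvr2b 0.08, and no call on a member changed. At 7 to 19 counts per library, depth limits the precision for Shh more than for the other members, which had at least 122 counts per library.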
